A study of Mus musculus with 22 samples.

Results

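The genes described here are the transcription factors through which the circadian clock drives its outputs and the kinases and ubiquitin ligase subunits that set the stability of clock proteins. They were chosen by name: Dbp, Tef, Nfil3, Bhlhe40, Bhlhe41, Csnk1d, Csnk1e, Fbxl21 and Btrc. Of these 9 genes, 8 were among the 10516 genes measured, and Fbxl21 was not, so it was not analysed here. NIH3T3 cells, a fibroblast line grown from mouse embryos, were transduced with lentiviral shRNA vectors and selected with puromycin, and RPF-seq and RNA-seq libraries were made from the same lysates of confluent dishes. Denr was knocked down with Denr shRNA1 (n = 3) or Denr shRNA2 (n = 3), and control cells carried scramble shRNA (n = 3) or Gfp shRNA (n = 2), which gave 11 lysates and 22 libraries. All cells carried a lentiviral vector and were exposed to cycloheximide at 100 µg/ml for 2 min before lysis, and all were grown in DMEM with serum. The knockdown is partial, acts in a whole cell population and was read at 1 harvest for which the labels give no circadian time, so rhythms of these genes were not measured.

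The proteins fall into roles that are well known from other work. DBP and TEF are PAR bZIP factors that activate genes with D-box elements, and NFIL3 is a bZIP repressor that binds the same elements. BHLHE40 and BHLHE41 are bHLH repressors that bind E-boxes and dampen transcription by CLOCK and ARNTL. Casein kinases CSNK1D and CSNK1E phosphorylate PER proteins, and BTRC is the F-box subunit of an SCF ubiquitin ligase that recognizes the phosphorylated PER proteins. DENR, with its partner MCTS1, helps ribosomes to start again at a CDS after they have translated an upstream open reading frame (uORF), and the comparison of knockdown with control cells therefore asks which transcripts need it for translation of their CDS.

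Since that question turns on start codons upstream of the CDS, the AUG-initiated uORFs of each gene were taken from the annotation (GENCODE vM21, build GRCm38), on the transcript with the longest CDS. Counted as uORFs were reading frames of 9 nt or more, stop included, that began with AUG upstream of the CDS. In the paper uORFs could also start with CUG, GUG or UUG, and they had to show footprint coverage and a preferred frame. Those other starts were not searched for here, and footprints were not used. Of 10247 genes with an annotated 5′ UTR, 49.9% had such a uORF on this transcript, 42.2% had one that ended within the 5′ UTR and 16.2% had one that ran into the CDS. Among the 8 clock genes, Dbp, Tef, Nfil3, Bhlhe40 and Csnk1d had uORFs, and Bhlhe41, Csnk1e and Btrc had none on that transcript. The windows that follow hold the 10 bases before a start codon, the start codon in capitals, and the 7 bases after it. They are shown because they place each uORF start next to the CDS start downstream of it. The uORFs were read from the sequence alone, and whether they are translated was not tested here.

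For Dbp, on chromosome 7 (plus strand), the uORF starts lie at chr7:45705580-45705599 and chr7:45705588-45705607, and the CDS start lies at chr7:45705614-45705633.
Dbp uORF 1 start: tcgactctccATGagctcat
Dbp uORF 2 start: ccatgagctcATGaacctgg
Dbp CDS start: gtccacggcaATGgcgcggc
The AUG of uORF 1 was 34 nt upstream of the CDS and its reading frame of 12 nt ended 22 nt before the CDS. The AUG of uORF 2 was 26 nt upstream, and its frame of 42 nt overlapped the CDS by 16 nt. Neither uORF start had a purine at the third base before the AUG or a G right after it, the bases that favour recognition by the scanning ribosome, whereas the CDS start had both.

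For the bHLH repressor Bhlhe40, on chromosome 6 (plus strand), the uORF start lies at chr6:108660713-108660732 and the CDS start at chr6:108660903-108660922. For its paralog Bhlhe41, on chromosome 6 (minus strand), the CDS start lies at chr6:145865258-145865277.
Bhlhe40 uORF 1 start: acacccggccATGcacgccc
Bhlhe40 CDS start: tcgccgcatcATGgaacgga
Bhlhe41 CDS start: gccattgaacATGgacgaag
The Bhlhe40 uORF was 18 nt long and ended 172 nt upstream of the CDS. Bhlhe41 had no AUG-initiated uORF in its 5′ UTR of 291 nt.

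For Tef, on chromosome 15 (plus strand), the uORF start lies at chr15:81811424-81811443 and the CDS start at chr15:81811560-81811579. For Csnk1d, on chromosome 11 (minus strand), the uORF starts lie at chr11:120991307-120991326 and chr11:120991130-120991149, and the CDS start at chr11:120991001-120991020.
Tef uORF 1 start: aggggtgcggATGgagagag
Tef CDS start: gcagggcacgATGtccgacg
Csnk1d uORF 1 start: tcacagcgcgATGgcggcgg
Csnk1d uORF 2 start: ccggaaagcgATGgtgaaag
Csnk1d CDS start: caccgctgccATGgagctga
The Tef uORF of 291 nt overlapped the CDS by 155 nt. Both Csnk1d uORFs, of 27 and 21 nt, had a purine and a G at the favourable bases, like the CDS start that follows them. Nfil3 had 3 uORFs, of 15, 51 and 12 nt, all of which ended within its 5′ UTR.

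**Figure D1:**
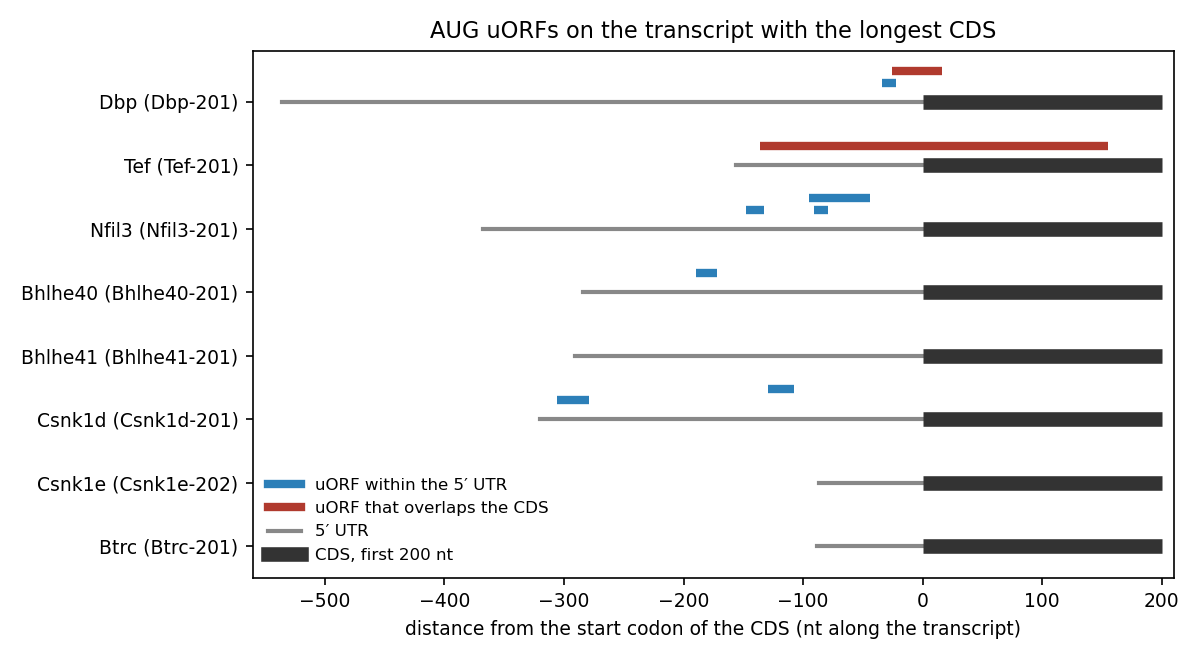
AUG-initiated uORFs of the 8 genes, drawn to scale by distance (nt along the transcript) from the start codon of the CDS; grey lines are 5′ UTRs, black bars the first 200 nt of the CDS, blue bars uORFs that end in the 5′ UTR and red bars uORFs that overlap the CDS. On the transcripts drawn, Dbp and Tef carry an overlapping uORF, and Bhlhe41, Csnk1e and Btrc carry no AUG-initiated uORF.

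On GRCm38 the genes lie at chr7:45705088-45710203 (Dbp, ENSMUSG00000059824, plus strand), chr15:81802421-81826863 (Tef, ENSMUSG00000022389, plus) and chr13:52967209-52981073 (Nfil3, ENSMUSG00000056749, minus). The bHLH genes lie at chr6:108660629-108666925 (Bhlhe40, ENSMUSG00000030103, plus) and chr6:145858243-145865558 (Bhlhe41, ENSMUSG00000030256, minus). Csnk1d (ENSMUSG00000025162) lies at chr11:120961749-120991330 and Csnk1e (ENSMUSG00000022433) at chr15:79417856-79455566, both on the minus strand, and Btrc (ENSMUSG00000025217) at chr19:45363734-45530013 on the plus strand. Csnk1d and Csnk1e shared no stretch of 29 nt, and Csnk1e shared 3 of its 1223 windows of that length with another family member, Csnk1g2. Shorter stretches were not compared.

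The annotation behind the values differed from this transcript for some genes. The 5′ UTR length behind the RPKM values was inferred from the steps of these values. It was that of the transcript above for Nfil3 (368 nt), Bhlhe40 (284 nt), Bhlhe41 (291 nt) and Csnk1d (320 nt). It was 377 nt for Dbp, 753 nt for Tef, 685 nt for Csnk1e and 105 nt for Btrc, which is no length of a complete GENCODE vM21 transcript of these genes, so that footprints on these 5′ UTRs come from regions that were not placed here. On other complete transcripts Csnk1e-203 and Btrc-209 had 2 and 3 uORFs, and Tef-202 had 1 within its 5′ UTR.

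Per library, 10927303 to 21649878 footprints and 8514080 to 20109700 RNA reads fell on a CDS or 5′ UTR, and the shallowest RNA-seq library was scramble replicate 3. Denr itself, the target of the shRNAs, lay between 15.5 and 44.0 RPKM in RNA-seq of knockdown lysates and between 164.7 and 190.1 in control lysates, a log2 change of −2.75 ± 0.25 (SE; limma, adjusted p = 0.000350). Of 9 fibroblast markers 8 were measured, and their summed RNA level was 7620 to 9520 RPKM in knockdown and 7290 to 8870 RPKM in control lysates. Of the markers of epithelial (4), leukocyte, endothelial, neuronal and liver cells (3 each), Cdh1 (2.74 to 4.05 RPKM) and Cdh5 (0.544 to 1.1 RPKM) were the ones among the measured genes.

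The 8 genes differed widely in level. RPKM are per length, so that levels can be set beside each other as far as the lengths hold. The CDS length behind the values, inferred in the same way, exceeded the longest annotated CDS, stop included, for Csnk1e (1467 against 1251 nt) and Tef (1006 against 906 nt). It also did for Csnk1d (1313 against 1248 nt), Bhlhe41 (1277 against 1233 nt) and Bhlhe40 (1247 against 1236 nt). The order of genes with close levels is therefore approximate. In control lysates the RNA of Csnk1d averaged 95.9 ± 3.3 RPKM (SD, n = 5) and that of Tef 95.1 ± 7.0, and these ranges overlapped. Csnk1e followed with 65.0 ± 3.7, Dbp with 35.4 ± 4.2 and Bhlhe40 with 26.3 ± 4.5, where the last pair overlapped. Btrc was at 17.5 ± 2.9, and the 2 rarest transcripts were Nfil3 with 3.79 ± 0.73 and Bhlhe41 with 2.13 ± 0.39 RPKM. Apart from the overlapping neighbours Csnk1d and Tef, and Dbp and Bhlhe40, each gene was separated from the next by all lysates of the control group. In the knockdown group Nfil3 and Bhlhe41 overlapped as well. The abundance of the kinases and of Tef was thus in the upper part of the distribution, with 81.3% of the 10516 genes below Csnk1d and 81.1% below Tef, while 9.91% were below Nfil3 and 5.51% below Bhlhe41.

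Ribosome footprints on the CDS gave another order. Csnk1d led with 124.4 ± 3.6 RPKM in control lysates (SD, n = 5), followed by Tef with 74.0 ± 10.9. Csnk1e (32.7 ± 3.2), Bhlhe40 (32.4 ± 5.7) and Dbp (30.5 ± 6.5) overlapped. Btrc had 17.0 ± 2.3, Bhlhe41 6.54 ± 1.02 and Nfil3 2.17 ± 0.78 RPKM, and these 3 were separated from their neighbours. Bhlhe41 had less RNA than Nfil3 and more footprints, in every control lysate. The reads behind these levels ranged from 28 to 75 for Bhlhe41 RNA and from 22 to 77 for Nfil3 footprints per library, against 996 to 2558 for Csnk1d RNA, so the levels of Nfil3 and Bhlhe41 rest on few reads.

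**Figure D2:**
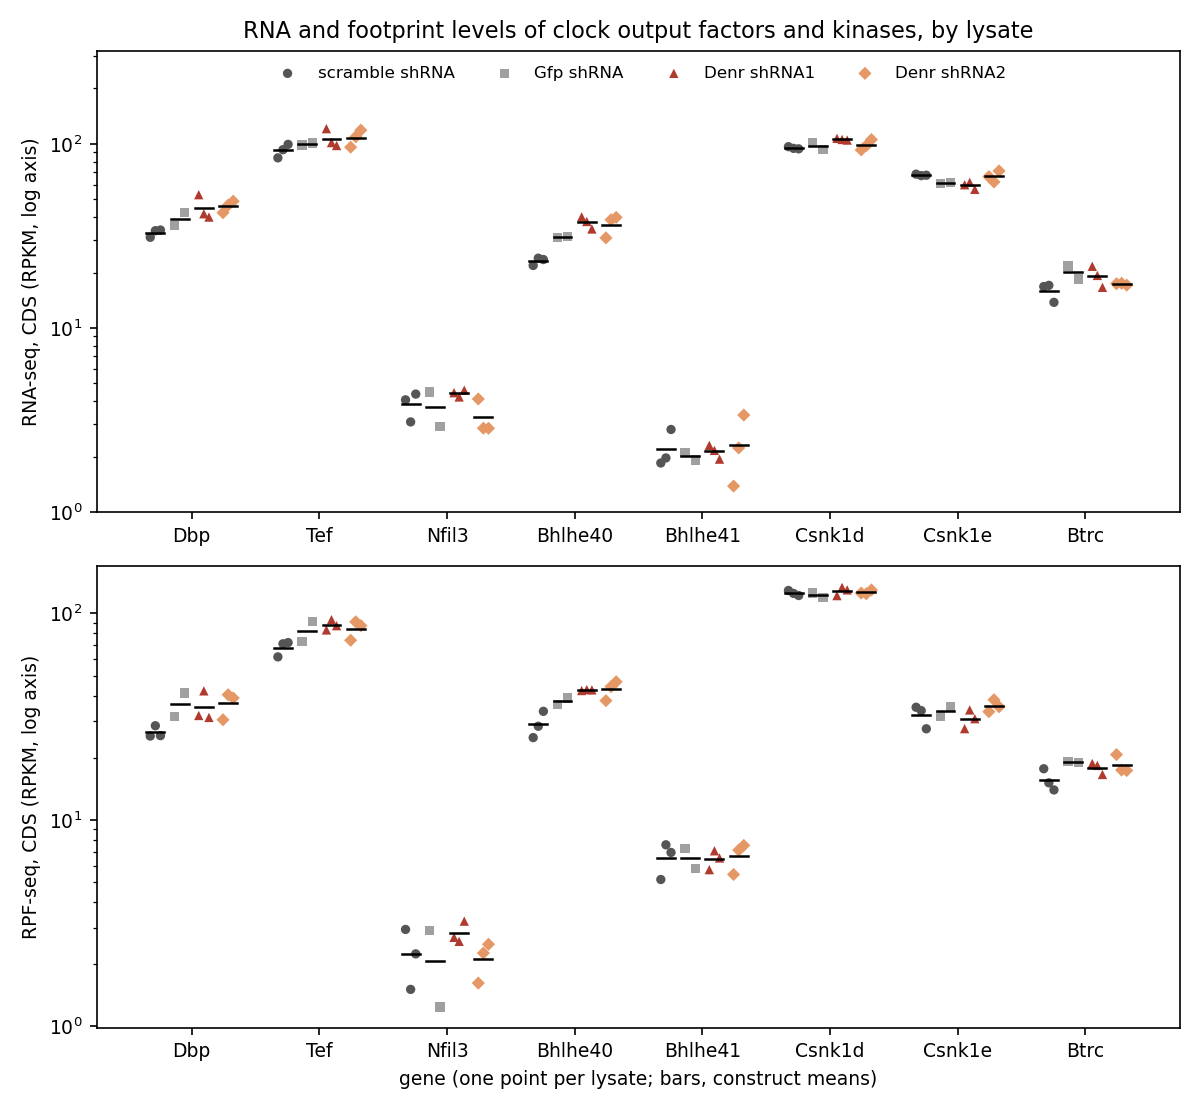
RPKM of the CDS of the 8 genes in RNA-seq (top) and RPF-seq (bottom), on log axes, with 1 point per lysate and a bar at the mean of each shRNA construct. Tef and Csnk1d are highest and Nfil3 and Bhlhe41 lowest in RNA, and the scramble lysates of Bhlhe40 and Dbp lie below all other lysates in both assays.

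At the level of RNA abundance, knockdown cells had more Bhlhe40 and more Dbp transcript than control cells, and no other of the 8 genes passed the threshold (limma on log2(RPKM + 0.1), Benjamini-Hochberg over all genes, FDR 0.1). Over all genes 3.55% passed, 2.68% as higher and 0.865% as lower, against 2 of these 8, both higher. The lysates are bulk samples, in which fewer cells that express a gene and less RNA per cell cannot be told apart.

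Bhlhe40 RNA, which encodes the more abundant of the bHLH repressors, was 40.1, 37.8 and 34.5 RPKM with Denr shRNA1 and 30.8, 38.7 and 39.8 RPKM with Denr shRNA2. It was 21.8, 23.9 and 23.5 RPKM with scramble shRNA and 30.9 and 31.4 RPKM with Gfp shRNA. The scramble lysates were the lowest, and the Gfp lysates lay within the knockdown range, just above its lowest lysate. The log2 change was 0.50 ± 0.11 (SE; 95% interval 0.26 to 0.73; limma, adjusted p = 0.0370), a fold of 1.41, and 98.1% of all genes had a lower change.

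Dbp RNA was 52.9, 41.7 and 40.0 RPKM with Denr shRNA1 and 42.2, 46.4 and 48.8 RPKM with Denr shRNA2. It was 31.1, 33.7 and 34.0 RPKM with scramble shRNA and 35.9 and 42.2 RPKM with Gfp shRNA. As for Bhlhe40, scramble lysates were lowest, and Gfp replicate 2 fell among the knockdown lysates. The log2 change was 0.36 ± 0.09 (SE; 95% interval 0.16 to 0.56; limma, adjusted p = 0.0754), a fold of 1.28. Exons of Sphk2 on the opposite strand cover 216 nt of the Dbp CDS, and whether reads were counted by strand is not given in the sources used here. Sphk2 RNA spanned 10.2 to 15.7 RPKM in knockdown and 11.3 to 12.3 RPKM in control lysates (log2 change 0.10 ± 0.11, limma, adjusted p = 0.699).

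Both calls depended on the control construct, a measured limit that applies to each. Against scramble shRNA alone the log2 changes were 0.67 for Bhlhe40 (limma, adjusted p = 0.00379) and 0.45 for Dbp (adjusted p = 0.0279). Against Gfp shRNA alone, a comparison added after the data had been seen, they were 0.24 and 0.21, neither past the threshold (limma, adjusted p = 0.999 for both). Over all genes, too, calls in RNA and in footprints rose with scramble alone and fell with Gfp alone, as counted in the last section. Bhlhe40 also lost its call without scramble replicate 1 (log2 change 0.44) or 2 (0.47). With Denr shRNA1 alone (0.52, limma, adjusted p = 0.138) or Denr shRNA2 alone (0.48, adjusted p = 0.112) it missed the threshold as well. Dbp missed it with Denr shRNA1 alone (0.34, limma, adjusted p = 0.296) and with each library centred on its median (0.33, adjusted p = 0.106). It also lost the call without scramble replicate 1 (0.31), 2 (0.34) or 3 (0.34), or without Denr shRNA2 replicate 1 (0.38), 2 (0.35) or 3 (0.33). Over all single omissions, 139 to 734 of all genes passed in RNA.

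The other 6 transcripts did not pass the test. Tef, the second PAR bZIP factor, had 120.8, 101.5 and 97.9 RPKM with Denr shRNA1, 95.8, 109.2 and 118.6 with Denr shRNA2, 83.8, 92.9 and 99.3 with scramble and 98.4 and 100.9 with Gfp shRNA. Its log2 change was 0.17 ± 0.08 (95% interval −0.0018 to 0.35; limma, adjusted p = 0.315), and knockdown and control lysates overlapped. The changes of the kinases were 0.09 ± 0.06 for Csnk1d (95% interval −0.04 to 0.22) and −0.05 ± 0.07 for Csnk1e (−0.20 to 0.11), those of Btrc 0.07 ± 0.11 (−0.17 to 0.30). The scarce transcripts Nfil3 (0.02 ± 0.17, 95% interval −0.34 to 0.37) and Bhlhe41 (0.04 ± 0.19, −0.36 to 0.44) had wide intervals, which hold changes as large as that of Dbp. The change was above 0 in 7 of the 8 genes and in 57.1% of all genes, and the median over the 8 genes was 0.08, beside 0.03 over all genes.

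In CDS footprints of the same lysates Bhlhe40 was called as higher, and none of the other 7 genes was called. Over all genes 10.0% passed, 5.47% as higher and 4.55% as lower, against 1 of 8, which is near that share. The change was above 0 in all 8 genes, as it was in 51.9% of all genes, and their median was 0.17, beside 0.01 over all genes. With the replicate number added to the fit the footprint calls differed, as given in the last section.

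Bhlhe40 footprints were 42.3, 42.8 and 42.6 RPKM with Denr shRNA1 and 37.8, 44.2 and 46.7 RPKM with Denr shRNA2. They were 25.0, 28.4 and 33.6 RPKM with scramble shRNA and 36.1 and 39.0 RPKM with Gfp shRNA. The lowest knockdown lysate lay between the Gfp lysates and above the scramble lysates. The log2 change was 0.41 ± 0.10 (SE; 95% interval 0.20 to 0.63; limma, adjusted p = 0.0355). It was 0.57 against scramble alone (limma, adjusted p = 0.00366) and 0.18 against Gfp alone (adjusted p = 0.462), and each Denr shRNA alone fell just short of the threshold (0.41, adjusted p = 0.103 for shRNA1, and 0.42, adjusted p = 0.119 for shRNA2).

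Dbp footprints were 32.0, 42.2 and 31.3 RPKM with Denr shRNA1 and 30.6, 40.4 and 38.9 RPKM with Denr shRNA2. They were 25.5, 28.6 and 25.6 RPKM with scramble shRNA and 31.7 and 41.1 RPKM with Gfp shRNA. All scramble lysates were below all knockdown lysates, and both Gfp lysates were within the knockdown range. The log2 change was 0.25 ± 0.13 (95% interval −0.03 to 0.52; limma, adjusted p = 0.254), 0.42 against scramble alone (adjusted p = 0.0265) and −0.02 against Gfp alone (adjusted p = 0.977).

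Tef footprints were also lower in all scramble lysates than in any knockdown lysate, with the Gfp lysates on either side of the lowest knockdown lysate. They were 83.2, 93.3 and 87.3 RPKM with Denr shRNA1, 74.2, 91.1 and 87.3 with Denr shRNA2, 61.6, 71.3 and 72.3 with scramble, and 73.0 and 91.7 with Gfp shRNA. The log2 change was 0.23 ± 0.09 (95% interval 0.04 to 0.42; limma, adjusted p = 0.148), and against scramble alone it was 0.33 (adjusted p = 0.0201). Without Gfp replicate 2, in which both PAR bZIP factors had their highest control value, Tef (0.31, limma, adjusted p = 0.0253) and Dbp (0.36, adjusted p = 0.0519) passed the threshold. Over all single omissions, 484 to 1946 of all genes passed in footprints.

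The footprint changes of the remaining genes were near 0 or wide. Csnk1d had 0.04 ± 0.05 (95% interval −0.06 to 0.14), the tightest of the 8, and Csnk1e 0.02 ± 0.09 (−0.17 to 0.21). Btrc had 0.11 ± 0.09 (−0.09 to 0.30) and Bhlhe41 0.01 ± 0.12 (−0.24 to 0.26). Nfil3 had 0.23 ± 0.22 (−0.25 to 0.71), with lysates from 1.62 to 3.23 RPKM in knockdown and from 1.24 to 2.94 RPKM in control cells.

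**Figure D3:**
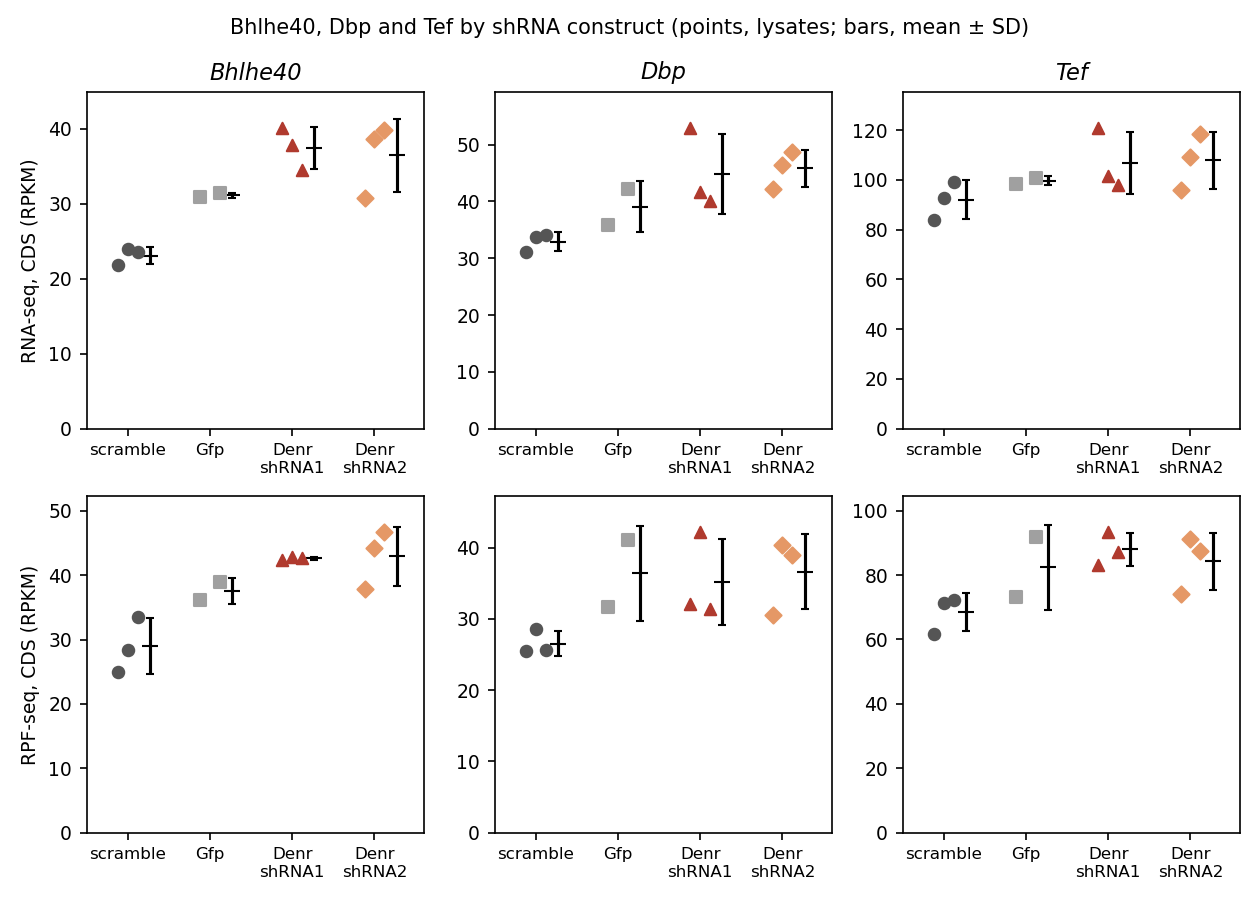
RPKM of the CDS of Bhlhe40, Dbp and Tef in RNA-seq (top) and RPF-seq (bottom) by shRNA construct, with 1 point per lysate and bars for mean ± SD (n = 3, or 2 for Gfp). Scramble lysates lie below all others except in Tef RNA, where scramble replicate 3 (99.3 RPKM) is above Gfp replicate 1 (98.4) and the lowest lysate of each Denr shRNA (97.9 and 95.8).

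The control constructs were also compared with each other. In a fit with a mean for each construct, Gfp exceeded scramble in Bhlhe40 footprints by 0.38 ± 0.12 on the log2 scale (limma, adjusted p = 0.0901), 1 of 8 genes where 8.48% of all genes passed. That call was lost without Gfp replicate 1 (0.44) or 2 (0.33), without scramble replicate 1 (0.28) or 2 (0.37), and, at 0.38, without any 1 of the Denr shRNA1 lysates or Denr shRNA2 replicate 2 (adjusted p from 0.103 to 0.367 over these). The same difference was 0.44 ± 0.15 for Dbp (adjusted p = 0.123), 0.26 ± 0.12 for Tef (adjusted p = 0.206) and 0.30 ± 0.11 for Btrc (adjusted p = 0.152). In TE no gene passed in limma, with 2.22% at an unadjusted p below 0.05. In RNA none of the 8 passed, where 0.704% of all genes did, and the RNA differences were 0.43 ± 0.12 for Bhlhe40 (limma, adjusted p = 0.223), 0.34 ± 0.14 for Btrc (adjusted p = 0.436), 0.24 ± 0.13 for Dbp (adjusted p = 0.575) and 0.12 ± 0.12 for Tef (adjusted p = 0.744). For Bhlhe40 these differences stood beside knockdown changes of 0.50 in RNA and 0.41 in footprints, and for Dbp beside 0.36 and 0.25. The part of the control construct in those changes was not tested.

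Between shRNA2 and shRNA1 none of the 8 genes passed in RNA (2.06% of all genes), in footprints (9.69%) or in translation efficiency (0 of 10516 genes in limma, with 3.73% at an unadjusted p below 0.05). In RNA and in footprints the largest differences were lower Nfil3 with shRNA2, by −0.44 ± 0.20 in RNA (limma, adjusted p = 0.358) and −0.41 ± 0.29 in footprints (adjusted p = 0.486), and higher Csnk1e, by 0.16 ± 0.08 in RNA (adjusted p = 0.402) and 0.21 ± 0.10 in footprints (adjusted p = 0.293). For Bhlhe40 the difference was −0.05 ± 0.11 in RNA and 0.01 ± 0.10 in footprints.

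Translation efficiency (TE), the log2 footprint value minus the log2 RNA value of the CDS in the same lysate, separated these genes more than the knockdown did. In control lysates Bhlhe41 had the highest TE, 1.58 ± 0.24 (SD, n = 5), above that of 98.1% of all genes. Csnk1d (0.37 ± 0.04) and Bhlhe40 (0.30 ± 0.13) came next, above 72.0% and 68.3% of genes. Btrc was near the middle, at −0.04 ± 0.12, followed by Dbp (−0.23 ± 0.14) and Tef (−0.37 ± 0.13). Nfil3 (−0.83 ± 0.29) and Csnk1e (−0.99 ± 0.18) were lowest, with 22.7% and 18.5% of genes below them. The paralogous kinases thus differed by more than their spread, with every Csnk1d lysate above every Csnk1e lysate, and so did the bHLH paralogs.

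With knockdown, TE passed the test in none of the 8 genes (limma, FDR 0.1), where 0.475% of all genes passed, all of them lower, and none of the 8 had an unadjusted p below 0.05, as 6.66% of all genes did. With voom on the recovered reads none of the 8 was called either, and 67 of all genes were. Of the 8 changes 4 were above and 4 below 0, and knockdown and control lysates overlapped for each. The change was −0.11 ± 0.12 for Dbp (95% interval −0.37 to 0.15), 0.05 ± 0.09 for Tef (−0.15 to 0.26) and 0.22 ± 0.19 for Nfil3 (−0.19 to 0.62). It was −0.09 ± 0.07 for Bhlhe40 (−0.25 to 0.08) and −0.02 ± 0.15 for Bhlhe41 (−0.35 to 0.30). For the kinases and the ligase subunit it was −0.05 ± 0.06 in Csnk1d (−0.19 to 0.08), 0.07 ± 0.10 in Csnk1e (−0.15 to 0.29) and 0.04 ± 0.09 in Btrc (−0.15 to 0.23). The intervals of Csnk1d, Bhlhe40, Btrc, Tef and Csnk1e leave room for changes of at most 0.29 on the log2 scale, and those of Dbp, Bhlhe41 and Nfil3 for larger ones.

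In single lysates Dbp TE was −0.72, 0.02 and −0.35 with Denr shRNA1 and −0.47, −0.20 and −0.32 with Denr shRNA2. In control lysates it was −0.29, −0.24 and −0.41 with scramble and −0.18 and −0.04 with Gfp shRNA. Denr shRNA1 held both the lowest and the highest value. Bhlhe40 TE was 0.08, 0.18 and 0.31 with Denr shRNA1, 0.29, 0.19 and 0.23 with Denr shRNA2, 0.20, 0.25 and 0.51 with scramble and 0.22 and 0.31 with Gfp shRNA. Scramble replicate 3, the shallowest RNA-seq library, stood above the knockdown range, and Gfp replicate 2 (0.311) was just above its highest lysate (0.306).

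**Figure D4:**
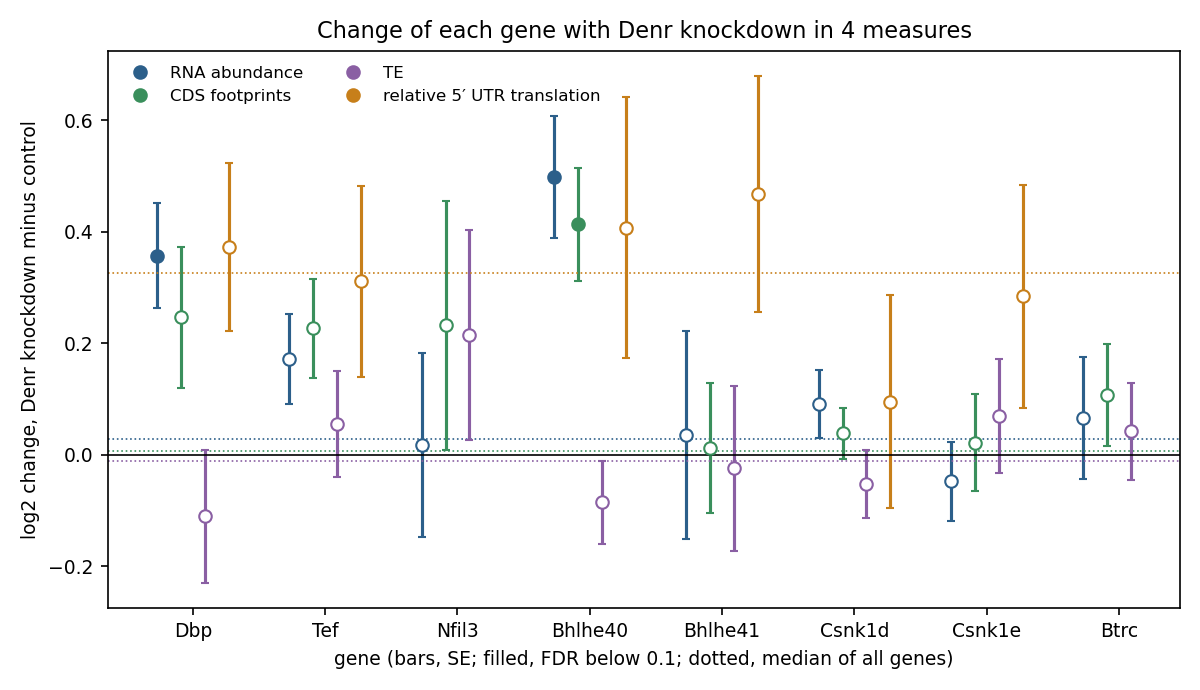
Log2 change (knockdown minus control) of each gene in RNA abundance, CDS footprints, TE and relative 5′ UTR translation, with bars of 1 SE; filled points pass an FDR of 0.1 and dotted lines mark the median of all genes. Bhlhe40 (RNA and footprints) and Dbp (RNA) are the filled points, and relative 5′ UTR translation lies near its median of 0.33 for most of the 6 covered genes.

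Footprints on the 5′ UTR were dense enough (at least 20 reads in at least 9 of 11 RPF-seq libraries) for 6 of the 8 genes. Nfil3, with 5 to 20 reads per library, and Btrc, with 0 to 3, were not. Relative 5′ UTR translation, the log2 ratio of footprint RPKM on the 5′ UTR to footprint RPKM on the CDS, differed widely between the genes. Dbp stood at 0.79 ± 0.17 in control lysates (SD, n = 5), that is, with a denser 5′ UTR than CDS, as was the case in 27.7% of 5175 covered genes. Bhlhe41 was at −0.28 ± 0.55, Bhlhe40 at −1.18 ± 0.56 and Csnk1d at −2.10 ± 0.38. Csnk1e (−3.31 ± 0.32) and Tef (−4.48 ± 0.15) had 5′ UTRs sparse in footprints, and 2.67% of genes were below Tef. In RNA-seq of control lysates the log2 ratio of 5′ UTR to CDS was also low in Csnk1e (−4.39), Tef (−3.49) and Csnk1d (−2.50). It was −0.68 in Bhlhe40, 0.48 in Bhlhe41 and 0.50 in Dbp. The footprint ratios are therefore not levels of translation per 5′ UTR RNA. For Tef and Csnk1e the 5′ UTR behind the values was longer than on the transcript with the longest CDS, and its part in these levels was not tested.

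With knockdown, relative 5′ UTR translation was called in none of the 6 genes (limma, FDR 0.1), where 18.1% of covered genes were called, nearly all higher. At an unadjusted p below 0.05, 2 of the 6 (Dbp and Bhlhe41) were past, and 33.3% of covered genes were. With voom on the recovered reads none of the 6 and 1125 of the 5175 genes were called. With the replicate number added to the fit the calls differed, for these genes and over all genes, as given in the last section. The median change of all covered genes was 0.33, so each gene is read against that shift. Dbp (0.37 ± 0.15), Tef (0.31 ± 0.17), Bhlhe40 (0.41 ± 0.23), Bhlhe41 (0.47 ± 0.21) and Csnk1e (0.28 ± 0.20) were within 1 SE of it. Csnk1d was below, at 0.09 ± 0.19 (95% interval −0.31 to 0.50). Centring each library on its median takes about that shift from every gene, so that by construction the genes below it, Tef (−0.01), Csnk1e (−0.04) and Csnk1d (−0.23), have values under 0.

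By lysate, relative 5′ UTR translation of Dbp was 1.31, 1.01 and 1.06 with Denr shRNA1 and 1.44, 1.21 and 0.91 with Denr shRNA2. It was 0.70, 0.96 and 0.84 with scramble and 0.54 and 0.89 with Gfp shRNA. Only Denr shRNA2 replicate 3 was below the highest control lysate, and the adjusted p was 0.113 (limma). The share of Dbp footprints that fell on its 5′ UTR was 42.1% to 51.3% in knockdown and 36.0% to 43.0% in control lysates. Bhlhe41 went from −0.74, 0.09 and 0.28 with scramble and −0.98 and −0.04 with Gfp shRNA to 0.10, 0.09 and 0.48 with Denr shRNA1 and 0.01, 0.18 and 0.29 with Denr shRNA2 (limma, adjusted p = 0.137). Its control lysates spread over a wider range than its knockdown lysates and overlapped them, on 10 to 50 5′ UTR reads per library. Without Gfp replicate 2 both genes passed the threshold, at 0.40 for Dbp (limma, adjusted p = 0.0885) and 0.53 for Bhlhe41 (adjusted p = 0.0993). Single omissions also brought Dbp past it without scramble replicate 2 (0.42) or Denr shRNA2 replicate 3 (0.42), and Bhlhe41 without scramble replicate 3 (0.61). Over all single omissions, 38 to 1773 of the covered genes were called.

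**Figure D5:**
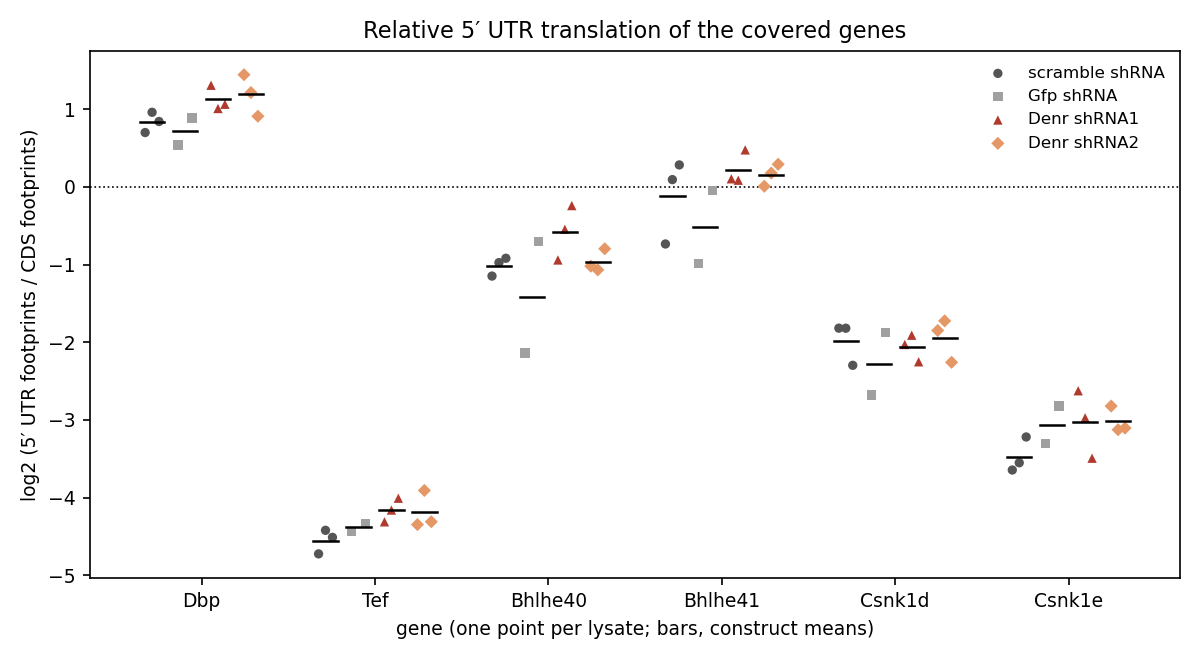
Relative 5′ UTR translation (log2 ratio of footprint RPKM on the 5′ UTR to that on the CDS) of the 6 covered genes, with 1 point per lysate and a bar at each construct mean; the dotted line marks equal density. Dbp lies above the line in all 11 lysates, and Tef and Csnk1e lie far below it.

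Footprints on the 5′ UTR without division by the CDS, a measure added after the data had been seen, rose for 3 of the 6 genes, where 23.1% of covered genes were called and the median change was 0.30. Dbp rose by 0.62 ± 0.17 (limma, adjusted p = 0.0347), Bhlhe40 by 0.82 ± 0.24 (adjusted p = 0.0474) and Tef by 0.54 ± 0.19 (adjusted p = 0.0761). These are also the 3 genes with the largest RNA changes on the CDS. On the 5′ UTR itself the RNA changes were 0.58 ± 0.17 for Bhlhe40, 0.38 ± 0.12 for Csnk1d, 0.33 ± 0.13 for Dbp and 0.20 ± 0.15 for Tef. They were 0.001 ± 0.22 for Csnk1e and −0.15 ± 0.21 for Bhlhe41, and none of these was called (6 of 5175 genes were). In RNA-seq the ratio of 5′ UTR to CDS was not called for any gene (0 of 5175 in limma, with 221 at an unadjusted p below 0.05). In RNA-seq that ratio changed by −0.03 ± 0.11 in Dbp, 0.08 ± 0.15 in Bhlhe40 and 0.03 ± 0.13 in Tef. In Csnk1d, whose 5′ UTR footprints were not called (0.13 ± 0.18, limma, adjusted p = 0.589), the RNA-seq ratio was 0.29 ± 0.10 higher (adjusted p = 0.960).

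Dbp, Tef and Bhlhe40 varied together over the lysates. Their log2 RNA values had a Pearson r of 0.92 (Dbp and Bhlhe40), 0.90 (Dbp and Tef) and 0.83 (Tef and Bhlhe40) over 11 lysates, which share their constructs and library normalization. In footprints the same pairs had 0.76, 0.89 and 0.89. The other pairs of the 8 genes reached at most 0.70 in RNA (Bhlhe40 and Csnk1d) and 0.57 in footprints (Nfil3 and Csnk1d). Among 10344 genes with a mean RNA level of at least 1 RPKM, the genes most like each in RNA over the 11 lysates were Klc4 (r = 0.956) and Cul7 (0.949) for Dbp. They were Cry2 (0.958) and Dnajb12 (0.914) for Tef, Lss (0.985) and Golga2 (0.970) for Bhlhe40, and Abl1 (0.917) and Pcbp1 (0.836) for Bhlhe41. They were Tasp1 (0.906) and Rbm45 (0.895) for Nfil3, Uqcrq (0.908) and Rffl (0.905) for Csnk1d, C4b (0.897) and Tigd3 (0.884) for Csnk1e, and Trappc6a (0.963) and Gaa (0.952) for Btrc. Cry2, a repressor of the core clock loop, was the 1 clock gene of the lists below in this set. With 11 lysates and 10344 genes to choose from, these values of r are a description.

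Of 52 other clock genes in 4 lists, 1 (1.92%) was called in RNA and 4 (7.69%) in footprints, beside 3.55% and 10.0% of all genes. Of 13 genes of the core loop 11 were measured. Nr1d1, which encodes the repressor REV-ERB alpha, fell in RNA by 0.37 ± 0.09 (limma, adjusted p = 0.0556) and in footprints by 0.42 ± 0.07 (adjusted p = 0.0111). Clock, which encodes the partner of ARNTL, fell in footprints by 0.35 ± 0.08 (limma, adjusted p = 0.0335), and its relative 5′ UTR translation rose by 0.50 ± 0.18 (adjusted p = 0.0926). None of 9 other clock outputs was called in RNA or footprints. Among 19 other clock kinases and phosphatases, Gsk3a rose in footprints by 0.18 ± 0.05 (limma, adjusted p = 0.0614), and among 13 other ubiquitin ligase parts, Huwe1 fell in footprints by 0.21 ± 0.07 (adjusted p = 0.0997). In TE no gene of these lists was called.

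In relative 5′ UTR translation 9 of 36 covered genes of these lists were called, all of them higher, beside 18.1% of all covered genes. They were 1 of 7 covered genes of the core loop (Clock) and 2 of 5 outputs, the cold-inducible RNA-binding protein gene Rbm3 (0.66 ± 0.16, limma, adjusted p = 0.0432) and Rgs16 (0.63 ± 0.22, adjusted p = 0.0861). They were 2 of 15 kinases and phosphatases, Csnk2a1 (0.43 ± 0.16, limma, adjusted p = 0.0957) and Ppp2ca (0.51 ± 0.18, adjusted p = 0.0867). They were 4 of 9 ligase parts, Skp1a, Ddb1, Fbxw11 and Cul1, with changes from 0.39 to 0.76. Fbxw11 encodes the paralog of BTRC, and SKP1A and CUL1 are subunits of the SCF complex in which BTRC acts. These calls are of a change from 0, and the median change of all covered genes was 0.33. Clock, Csnk2a1 and Cul1 were within 1 SE of that shift, and the other called genes were further above it. With each library centred on its median few calls over all genes were left, as counted in the last section. Whether ligase parts differ from other genes was not tested.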

How the data were processed

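RPF-seq, which sequences the mRNA fragments that ribosomes protect, and RNA-seq were measured in 11 lysates of NIH3T3 cells, each from a separate dish. Per the paper's methods and the submitters' processing notes, the authors clipped adapters (cutadapt), filtered out rRNA and tRNA reads, mapped the rest to transcripts and then to the genome (GRCm38.p2; Bowtie2 2.2.1, TopHat2 2.0.11), chose expressed isoforms with Cufflinks 2.2.1, placed footprints by their likely A-site, left out genes of low coverage, and scaled each assay by upper quartiles. RPKM values per region (CDS, 5′ UTR) were deposited by the authors. Whole reads could be recovered from the steps of these RPKM values, for all 231352 CDS values and 228800 finite 5′ UTR values within 0.0001 of a whole number. The length of a region was inferred as the smallest that made all its values whole. Of 3920 genes with a single annotated transcript, 2912 (74.3%) had the annotated 5′ UTR length. Intervals are of the mean difference between knockdown and control lysates, from a fit that pooled the constructs of each group. They rest on the spread between lysates within each group. That fit had no term for the construct, so the intervals need not hold the change against a single control construct. RNA abundance, CDS footprints, TE and relative 5′ UTR translation were tested with limma 3.58.1 (R 4.3.3; moderated with a trend) on log2(RPKM + 0.1), a scale that understates the change of low genes, in all genes, with the knockdown lysates against both controls and a Benjamini-Hochberg FDR of 0.1. A second fit with a mean per construct gave the contrasts within knockdown and within control. The fit was tested on simulated data for CDS footprints and TE, without construct or replicate effects. It was not tested so for RNA abundance or relative 5′ UTR translation. Genes were named by a rule: the genes of the set in each measure, Denr, genes of the clock lists past the FDR (at most 4 per list and measure), and for each gene the 2 with the highest correlation in RNA. These genes, lists and tests were chosen with earlier results of these data known. Sphk2 was named after its values were seen, because it overlaps Dbp. Gene symbols were matched for 10505 of 10516 identifiers.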

Additional observations from a re-analysis of the deposited data

Results flagged for a closer look

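Of 60 groups of lysates checked for a single value far from the others, 1 stood out, where chance gives about 1 in 20. It was the TE of Tef in control cells, where Gfp shRNA replicate 2 had −0.13835 and the other 4 control lysates lay between −0.457 and −0.381. That lysate also held the highest control footprint value of Tef, 91.7 RPKM.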

How the results depend on the processing

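Counts are of genes past the FDR of 0.1, for the set and for all genes. With each library centred on its median the set had 1 call in RNA (Bhlhe40), 0 in footprints of Gfp against scramble, and 4 of all genes in relative 5′ UTR translation. Nfil3 RNA then was −0.005722, and relative 5′ UTR translation was −0.0129 for Tef, −0.2289 for Csnk1d and −0.03994 for Csnk1e. With scramble alone as control, all genes had 940 calls in RNA, 2651 in footprints (3 in the set), 10 in TE and 514 in relative 5′ UTR translation. Reversed values were −0.0101 (Nfil3) and −0.008114 (Bhlhe41) in RNA, 0.0214 (Bhlhe41) in TE and −0.02528 (Csnk1d) in relative 5′ UTR translation. With Gfp alone as control, chosen after seeing the data, the set had 0 calls in RNA and 0 in footprints, and all genes had 18, 92, 0 and 47 in the same order of measures. Reversed values were 0.04121 (Csnk1e) and −0.1377 (Btrc) in RNA, −0.01969 (Dbp), −0.01847 (Csnk1e) and −0.07048 (Btrc) in footprints, and −0.03107 (Tef) and −0.05969 (Csnk1e) in TE.

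With Denr shRNA1 alone the set had 0 calls in RNA and 0 in footprints, and all genes had 159 in RNA, 1 in TE and 5 in relative 5′ UTR translation. Reversed values were −0.01093 (Bhlhe41) and −0.08333 (Csnk1e) in footprints and −0.04966 (Btrc) in TE. With Denr shRNA2 alone the set had 1 call in RNA (Dbp) and 0 in footprints, and all genes had 9 in relative 5′ UTR translation. Reversed RNA values were −0.2043 (Nfil3), 0.03286 (Csnk1e) and −0.003687 (Btrc). With voom on recovered reads Bhlhe41 footprints were −0.01144. In relative 5′ UTR translation, a minimum of 1 RPKM in place of reads left 131 calls over all genes. Footprints over 5′ UTR RNA left 4, with Csnk1d at −0.2478. The cause was not tested for any of these.

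The deviations of same-numbered lysates from their construct means had a correlation over 0.1 in 10 of 15 pairs in RNA (mean 0.326, beside −0.163 for other numbers) and 13 of 15 in footprints (0.18 beside −0.0894). In TE these were 10 of 15 pairs (0.226 beside −0.113) and in relative 5′ UTR translation 11 of 15 (0.21 beside −0.104). Subtracting construct means ties the mean for other numbers to the opposite sign, so it is no independent comparison. Of 11 lysates, 5 in RNA, 9 in footprints, 9 in TE and 10 in relative 5′ UTR translation correlated best with their own number. That is a hint from the data of a shared source. As not every pair passed 0.1 and the labels name no shared batch, the pairing was not taken as part of the design. With the replicate block all genes had 1003 calls in RNA, 1940 in footprints (2 in the set, Bhlhe40 and Tef) and 2418 in relative 5′ UTR translation (2 in the set, Dbp and Bhlhe41). Under the block Bhlhe41 was −0.01877 in RNA, −0.007432 in footprints and 0.01133 in TE. The block gave 965 calls in RNA and 1812 in footprints between the Denr shRNAs, and 157 in RNA and 1437 in footprints (3 in the set) between Gfp and scramble.

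Leaving out each lysate in turn gave 0 to 2 calls of the set in RNA (139 to 734 of all genes), 1 to 3 in footprints (484 to 1946), 14 to 72 of all genes in TE, and 0 to 2 in relative 5′ UTR translation (38 to 1773). Between the Denr shRNAs all genes had 61 to 267 calls in RNA, 560 to 1236 in footprints and 0 to 1 in TE. Between Gfp and scramble they had 1 to 212 in RNA and 154 to 1300 in footprints (0 to 1 in the set). Values that crossed 0 ranged in RNA from −0.06825 to 0.09558 (Nfil3), −0.08778 to 0.1567 (Bhlhe41) and −0.01737 to 0.1451 (Btrc). In footprints they ranged from −0.07053 to 0.06692 (Bhlhe41) and −0.03854 to 0.07274 (Csnk1e). In TE they ranged from −0.09925 to 0.05914 (Bhlhe41), −0.00422 to 0.1175 (Csnk1e) and −0.009032 to 0.08218 (Btrc), and in relative 5′ UTR translation from −0.05032 to 0.1648 (Csnk1d). Depth limits Nfil3 and Bhlhe41 on the CDS, and Nfil3 and Btrc on the 5′ UTR.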
